A study of Mus musculus with 21 samples.

Results

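The genes described here are the amino acid transporter families of 3T3-L1 adipocytes. They were chosen by symbol, taking every gene with a probe set of 1 symbol that starts Slc1a, Slc3a, Slc6a, Slc7a, Slc36a, Slc38a or Slc43a followed by a digit. In all 63 genes of the 18194 on the array match, and 39 of them, called members here, lay above the median of the whole table (5.34 on the log2 scale) on 3 or more of 21 arrays, as did 12156 genes in all. The study profiled 3T3-L1 cells, a mouse preadipocyte line that was grown into adipocytes over 14 days, and per its design it follows gene expression at early, middle and late times on the way to insulin resistance. The groups are Dex (dexamethasone, a synthetic glucocorticoid, 20 nM) for 2 h, 24 h or 6 d, TNF (tumor necrosis factor-alpha, an inflammatory cytokine, at a dose the labels do not give) for 2 h, 24 h or 6 d, and an untreated control, labelled 0 h, with 3 arrays labelled biological replicates in each. All groups come from the same cell line, and the labels name neither a vehicle nor separate cultures. The p-values therefore measure the spread between these arrays, which may in part be technical. No control is labelled 2 h, 24 h or 6 d, so length of treatment and time in culture cannot be told apart.

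Solute carriers move amino acids across the cell surface and across the membranes of lysosomes and synaptic vesicles. Slc7 light chains such as Slc7a5 work as exchangers only when paired with a heavy chain of the Slc3 family, and they trade an amino acid inside the cell, often glutamine brought in by Slc1a5 or the Slc38 carriers, for leucine, arginine or cystine outside. White fat cells use branched-chain amino acids and release glutamine, and the kinase complex mTORC1 responds to leucine and arginine.

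Values are log2 expression and a change is a log2 difference, of 3 arrays against 3, ± its standard error (SE). The SE rests on a spread estimated over all 21 arrays, and not only on the 2 groups compared. A member is called when its limma p, adjusted by Benjamini and Hochberg over all 12156 genes tested, is below 0.05. TNF 6 d replicate 2 stood apart from the other arrays: it correlated at 0.842 and 0.844 with its group mates across genes, and its Actb and Gapdh control probe sets were higher at the 3' than at the 5' end by 2.00, a sign of RNA quality, against at most 0.777 (Dex 6 d replicate 2) elsewhere. It was the lowest of 21 arrays for 14 members and the highest for 10, and it lay over 1 from the mean of its group mates for 16 members, while those mates differed from each other by a median of 0.14. Without it the SE was smaller for all 39 members in each comparison that leaves out TNF 6 d (median 0.14, against 0.22 with all arrays) and for 30 of 39 in each that holds TNF 6 d. Counts without it are therefore given as well, and changes without it stand in brackets where TNF 6 d is compared. In that 3' to 5' difference the next were TNF 2 h replicate 2 at 0.736 and TNF 24 h replicate 3 at 0.683.

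The adipocyte label fits its markers, since 7 of 8 adipocyte genes on the array passed the level threshold, with means over all arrays of 14.73 for Adipoq and 14.89 for Fabp4, while Lep was dim. The mean of those 8 genes lay at 10.99 to 11.18 after 2 h of TNF, 10.50 to 11.01 after 24 h and 10.19 to 10.96 after 6 d, against 11.60 to 11.63 in control. Under Dex it lay at 11.30 to 11.43, 11.50 to 11.67 and 11.24 to 11.50. Preadipocyte and fibroblast markers (6 of 7 above the threshold, Cd34 dim) averaged 9.25 to 9.54, 8.91 to 9.10 and 8.29 to 8.61 after 2 h, 24 h and 6 d of Dex. They averaged 9.42 to 9.74, 9.54 to 9.81 and 9.86 to 10.23 after the same times of TNF, against 9.40 to 9.72 in control. Of 8 macrophage markers, Adgre1, Ptprc, Itgam and Mrc1 were dim, as were 4 of 5 endothelial markers and Myod1 and Myog among 5 muscle markers. The macrophage markers Cd14, Csf1r, Cd68 and Lyz2, the endothelial marker Kdr and the muscle markers Des, Acta1 and Ckm passed the level threshold. The highest mean over all arrays in each list was 7.25 for Cd14, 6.62 for Kdr and 7.93 for Des. These lists therefore do not show that such cell types were absent. The macrophage list averaged 4.95 to 5.11, 5.30 to 5.50 and 5.17 to 5.24 under TNF, against 4.81 to 4.96 in control. In such bulk samples, fewer cells of a type and less RNA per cell cannot be told apart, and the part of these shifts in the transporter changes was not tested.

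Over the 6 comparisons with control, which share their control arrays, 8 of 39 members (20.5%) were called at least once, against 25.5% of all genes tested, and 31 were not called. No member was called in both directions. The 8 were Slc7a5, Slc1a5, Slc1a3, Slc43a2, Slc7a1 and Slc38a7, which rose, and Slc36a2 and Slc7a6, which fell. Without TNF 6 d replicate 2, 17 members (43.6%) were called, 1 of them (Slc38a6) in both directions, against 48.5% of all genes in the same fit.

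Under Dex, 0 members were called at 2 h by limma, against 2.48% of all genes (1.66% higher and 0.814% lower), and 3 without TNF 6 d replicate 2 (all higher, against 7.12% of all genes). At 24 h of Dex 3 members were called, 2 higher and 1 lower, beside 4.18% of all genes (2.06% higher and 2.11% lower), and 8 without that array (5 higher and 3 lower, beside 13.2%). At 6 d of Dex 4 were called, 3 higher and 1 lower, beside 8.3% of all genes (3.22% higher and 5.08% lower), and 7 without that array (4 higher and 3 lower, beside 24%). These shares of 39 lie near those of all genes, so the results below concern single transporters and not the families as a whole.

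After 2 h of TNF 2 members were called, both higher, beside 3.82% of all genes (2.95% higher and 0.872% lower), and 4 without TNF 6 d replicate 2 (all higher, beside 10.7%). After 24 h of TNF again 2 were called, both higher, beside 8.69% of all genes (5.41% higher and 3.27% lower), and 8 without that array (7 higher and 1 lower, beside 25.6%). The 2 h and 24 h counts without that array include Slc7a11, which passed the level threshold only on TNF arrays. After 6 d of TNF 4 were called, 2 higher and 2 lower, beside 15.2% of all genes (4.52% higher and 10.7% lower), and 5 without that array (4 higher and 1 lower, beside 20.5%). The median difference of the members was 0.08, 0.06 and 0.03 at the 3 times of TNF, against -0.05, -0.03 and -0.23 over all genes, and without TNF 6 d replicate 2 it was 0.04 at 6 d, against -0.05 over all genes. It was -0.02, 0.03 and 0.01 at the 3 times of Dex, against -0.02, 0.00 and -0.02 over all genes. The plot of shares sets members beside all genes in each comparison.

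**Figure D1:**
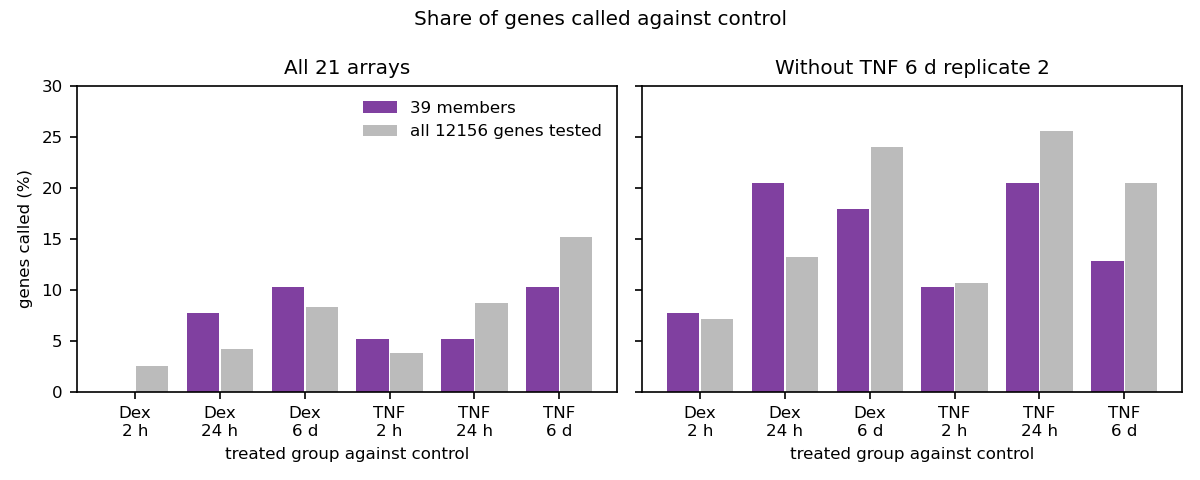
Percent of the 39 members and of all 12156 genes tested that were called (limma, adjusted p below 0.05) in each treated group against control, with all 21 arrays (left) and without TNF 6 d replicate 2 (right). The members' bars reach 10.3% on the left and 20.5% on the right, and lie above those of all genes in some comparisons and below them in others.

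The heat map of the changes against control shows a few members with large changes, some of them in different rows for the 2 agents. Slc36a2 was called lower at 6 d of both agents, and Slc7a5 was called higher under Dex and at 24 h of TNF.

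**Figure D2:**
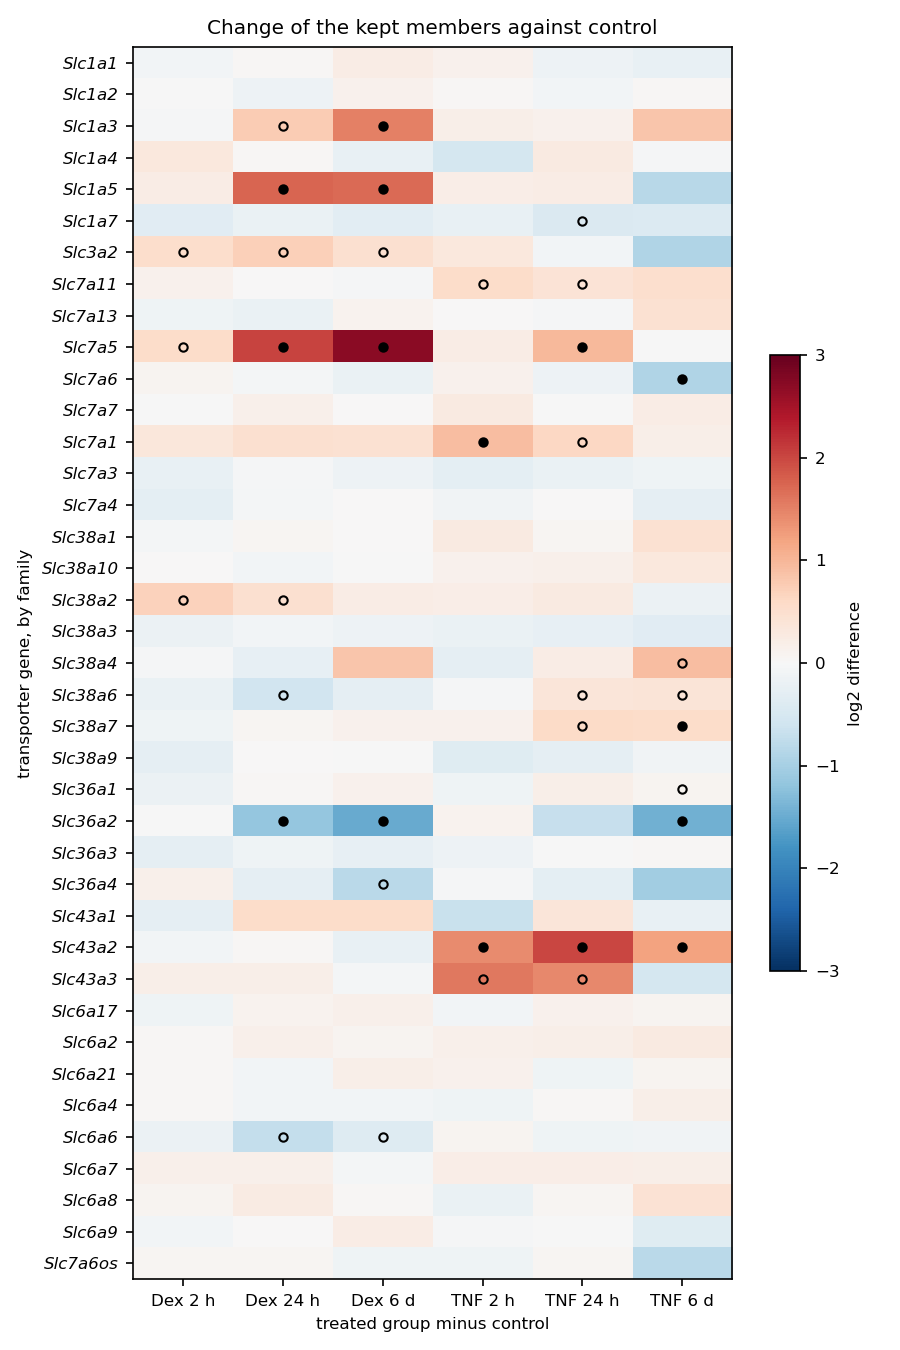
Log2 change of each kept member (rows, by role) against control in the 6 treated groups (columns), on a colour scale from lower to higher. Filled dots mark members called with all 21 arrays and open dots members called only without TNF 6 d replicate 2. Slc7a5 and Slc1a5 stand out under Dex and Slc43a2 and Slc43a3 under TNF.

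Slc7a5 (LAT1), the light chain that carries leucine and other large neutral amino acids, had the largest change of any member under Dex. Its Dex arrays read 7.71, 7.79 and 7.57 at 2 h, 9.24, 9.24 and 8.95 at 24 h and 9.78, 9.97 and 9.74 at 6 d, against 7.09, 7.06 and 7.25 on the control arrays. Every Dex array lay above every control array, and the 6 d arrays above those of 24 h. Slc7a5 rose 4.04-fold after 24 h of Dex (2.02 ± 0.23, limma adjusted p 1.4e-05) and 6.49-fold after 6 d (2.70 ± 0.23, adjusted p 2.0e-07). At 2 h the difference was 0.56 ± 0.23, with a limma adjusted p of 0.425, or 0.0414 without TNF 6 d replicate 2.

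The TNF arrays of Slc7a5 read 7.56, 7.36 and 7.15 at 2 h, 7.86, 7.88 and 8.59 at 24 h and 7.30, 6.53 and 7.51 at 6 d. At 24 h of TNF all 3 lay above control, with replicate 3 highest, while the 6 d arrays lay on both sides of control. Slc7a5 rose by 0.98 ± 0.23 after 24 h of TNF (limma adjusted p 0.00819), and without TNF 24 h replicate 3 the difference was 0.74 with an adjusted p of 0.0631. At 6 d of TNF it was -0.02 ± 0.23 [0.28] and was not called.

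Slc3a2 (CD98, the 4F2 heavy chain), the partner that brings Slc7a5, Slc7a6, Slc7a7 and Slc7a11 to the surface, read 11.45, 11.54 and 11.42 at 2 h, 11.68, 11.69 and 11.62 at 24 h and 11.63, 11.28 and 11.44 at 6 d under Dex, against 11.03, 10.78 and 11.05 in control. All 9 Dex arrays were above the 3 control arrays. The differences were 0.52 ± 0.41, 0.71 ± 0.41 and 0.49 ± 0.41, none of them called with all arrays. Without TNF 6 d replicate 2 their SE fell to 0.13 and all 3 were called, with limma adjusted p-values of 0.0128, 4.8e-04 and 0.00697. Under TNF it read 11.49, 11.08 and 11.21 at 2 h, 11.02, 10.96 and 10.62 at 24 h and 10.71, 8.43 and 11.01 at 6 d, where replicate 2 at 6 d was the lowest of all 21 arrays.

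The other light chains moved less. Slc7a6 (y+LAT2), which exchanges arginine for glutamine, read 9.06, 9.37 and 9.37 at 2 h, 9.01, 8.98 and 9.38 at 24 h and 8.95, 9.08 and 8.90 at 6 d under Dex, 9.32, 9.38 and 9.19 at 2 h, 9.0, 8.98 and 9.10 at 24 h and 8.81, 7.21 and 8.81 at 6 d under TNF and 9.11, 8.97 and 9.47 in control. It fell by 0.90 on the log2 scale at 6 d of TNF (limma adjusted p 0.0493), and this rests on TNF 6 d replicate 2: without it the difference was -0.37 ± 0.15 (adjusted p 0.0939). The call was also lost without any 1 control array (-0.76 to -1.01), and a second probe set of Slc7a6 gave -0.19 with all arrays. Slc7a6os, whose symbol the rule also takes, is the neighbour on the opposite strand of Slc7a6 and no transporter. It differed by -0.82 ± 0.38 [-0.10] at 6 d of TNF and was not called. Slc7a7 (y+LAT1), which also carries cationic amino acids, read 5.56, 5.37 and 5.17 at 2 h, 5.65, 5.53 and 5.41 at 24 h and 5.45, 5.56 and 5.20 at 6 d under Dex, 5.88, 5.64 and 5.41 at 2 h, 5.22, 5.53 and 5.32 at 24 h and 5.34, 6.24 and 5.22 at 6 d under TNF and 5.43, 5.51 and 5.20 in control, around the level threshold. Slc7a13 (AGT1), an aspartate and glutamate carrier that pairs with Slc3a1, exceeded the threshold on 3 arrays, just inside the rule, with a mean of 5.16. Those arrays were control replicate 1 (5.38), TNF 24 h replicate 3 (5.36) and TNF 6 d replicate 2 (6.48), so its place among the members rests in part on the array that stood apart.

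Slc1a5 (ASCT2), a sodium-coupled exchanger of glutamine and other small neutral amino acids, rose with Slc7a5 under Dex. Its Dex arrays read 10.58, 10.36 and 10.39 at 2 h, 12.13, 12.15 and 11.56 at 24 h and 11.96, 11.64 and 12.17 at 6 d, against 10.23, 10.31 and 10.09 in control. The 24 h and 6 d arrays lay above every control array by more than 1. Slc1a5 rose 3.33-fold at 24 h (1.74 ± 0.29, limma adjusted p 9.7e-04) and 3.28-fold at 6 d (1.71 ± 0.29, adjusted p 5.7e-04), and was 0.23 ± 0.29 at 2 h, which was not called. A second probe set of Slc1a5 gave 1.74 and 1.5 at 24 h and 6 d. Under TNF Slc1a5 read 10.51, 10.39 and 10.32 at 2 h, 10.44, 10.53 and 10.32 at 24 h and 9.82, 8.39 and 9.91 at 6 d. Its 6 d arrays were below control on all 3, with a difference of -0.84 ± 0.29 [-0.34] that was not called (limma adjusted p 0.0577 [0.15]), while the second probe set gave -0.07.

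Slc1a3 (GLAST), a sodium-coupled glutamate and aspartate transporter known best from astrocytes, read 10.14, 9.74 and 9.93 at 2 h, 10.82, 10.82 and 10.55 at 24 h and 11.53, 11.76 and 11.15 at 6 d under Dex, against 9.99, 10.05 and 9.87 in control. The Dex arrays at 24 h and 6 d did not overlap with control, and those of 6 d lay above those of 24 h. Slc1a3 rose 2.85-fold at 6 d (1.51 ± 0.28, limma adjusted p 0.00153). At 24 h it was 0.76 ± 0.28 (adjusted p 0.215, or 0.0171 without TNF 6 d replicate 2). Of its 5 other probe sets, all were higher at 6 d of Dex, by 0.68 to 1.43. Under TNF Slc1a3 read 9.89, 10.69 and 9.85 at 2 h, 10.25, 10.41 and 9.66 at 24 h and 10.46, 11.51 and 10.46 at 6 d, and at 6 d its probe sets ran in different directions, from -0.61 to 0.84.

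The remaining Slc1 members were not called against control. Slc1a4 (ASCT1), an exchanger of alanine, serine and cysteine, read 8.95, 8.99 and 8.81 at 2 h, 8.68, 8.78 and 8.46 at 24 h and 8.22, 8.87 and 8.03 at 6 d under Dex, 7.66, 8.59 and 7.99 at 2 h, 8.53, 8.60 and 9.49 at 24 h and 8.46, 9.01 and 8.27 at 6 d under TNF and 8.42, 8.78 and 8.63 in control. Its probe sets differed under TNF with all arrays. The one used gave 0.27 at 24 h and -0.03 at 6 d, and the others -0.20 and -0.20, and -0.77 and -0.84. Slc1a1 (EAAT3), a carrier of glutamate and cysteine, read 5.80, 5.75 and 5.67 at 2 h, 5.83, 6.02 and 5.75 at 24 h and 5.94, 6.15 and 6.06 at 6 d under Dex, 6.17, 5.91 and 5.78 at 2 h, 5.68, 5.63 and 5.73 at 24 h and 5.70, 5.25 and 5.84 at 6 d under TNF and 5.96, 5.90 and 5.63 in control, a narrow range in which TNF 6 d replicate 2 was lowest. The glutamate transporters Slc1a2 (GLT-1) and Slc1a7 (EAAT5) had means of 5.63 and 5.58, near the threshold. Slc1a7 was called without TNF 6 d replicate 2 at 24 h of TNF (-0.44 ± 0.16, limma adjusted p 0.042).

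The plot of members with changes under Dex shows each array of Slc7a5, Slc3a2, Slc1a5 and Slc1a3, with Slc38a2 and Slc36a2.

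**Figure D3:**
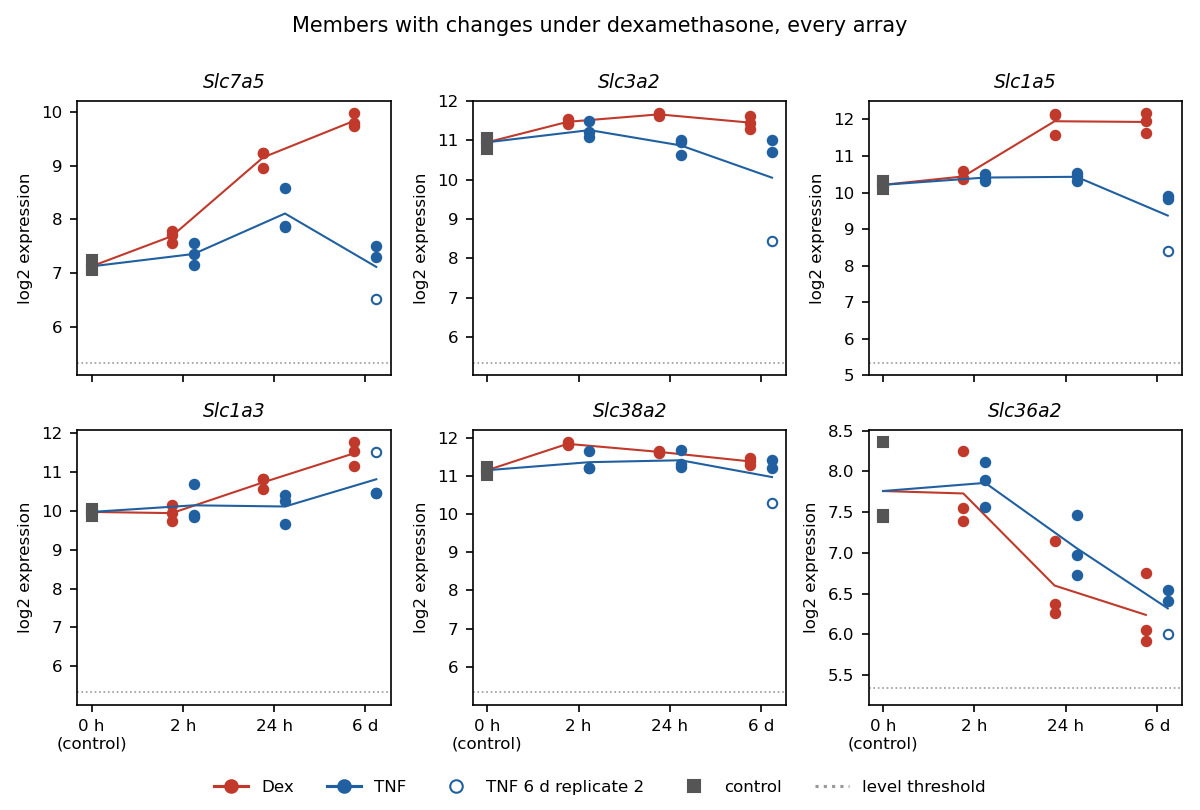
Log2 expression (y axis, a range of its own in each panel) on every array by time of treatment (x axis), with Dex in red, TNF in blue, control squares at 0 h and lines through group means. The open circle is TNF 6 d replicate 2 and the dotted line the level threshold of 5.34. Slc7a5 and Slc1a5 climb under Dex by 24 h, while Slc36a2 is lower at 24 h and 6 d.

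Slc36a2 (PAT2), a proton-coupled carrier of small amino acids that serves as a surface marker of brown and beige fat cells in mice, was lower under both agents. It read 7.39, 7.55 and 8.25 at 2 h, 6.37, 6.26 and 7.15 at 24 h and 5.92, 6.05 and 6.75 at 6 d under Dex and 7.56, 7.90 and 8.12 at 2 h, 6.73, 6.98 and 7.46 at 24 h and 6.41, 6.00 and 6.54 at 6 d under TNF, against 7.44, 7.47 and 8.36 in control. The arrays of 6 d of either agent all lay below the control arrays, and replicate 3 was the highest of its group in all 7 groups, control included. Slc36a2 fell by 1.52 ± 0.32 on the log2 scale at 6 d of Dex (limma adjusted p 0.00378) and by 1.44 ± 0.32 at 6 d of TNF (adjusted p 0.00548) [-1.28]. At 24 h of Dex it fell by 1.16 ± 0.32 (adjusted p 0.0432), and this call was lost in 7 of 14 other settings, among them without any 1 control array or without Dex 24 h replicate 1 or 2. The difference was smallest without control replicate 3 (-0.86, adjusted p 0.249).

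Slc36a1 (PAT1), the lysosomal proton-coupled carrier, read 7.31, 7.14 and 7.51 at 2 h, 7.56, 7.48 and 7.59 at 24 h and 7.64, 7.68 and 7.53 at 6 d under Dex, 7.23, 7.51 and 7.41 at 2 h, 7.72, 7.76 and 7.55 at 24 h and 7.94, 6.73 and 8.06 at 6 d under TNF and 7.46, 7.29 and 7.75 in control. At 6 d of TNF 2 arrays were the highest of all 21 and replicate 2 the lowest, so the difference was 0.08 ± 0.25 with all arrays and 0.50 ± 0.14 without that array (limma adjusted p 0.0144). Slc36a4 (PAT4), a carrier of proline and tryptophan, read 8.64, 8.77 and 8.78 at 2 h, 8.22, 8.17 and 8.54 at 24 h and 7.46, 8.0 and 7.82 at 6 d under Dex, against 8.49, 8.31 and 8.91 in control, and 8.46, 8.75 and 8.41 at 2 h, 8.28, 8.13 and 8.41 at 24 h and 8.35, 5.88 and 8.34 at 6 d under TNF. Its 6 d Dex arrays all lay below control, with a difference of -0.81 ± 0.43 (limma adjusted p 0.356, or 6.6e-04 without TNF 6 d replicate 2). Slc36a3, whose transport is poorly known, had a mean of 5.59 and was not called.

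The Slc43 family held the members with the largest changes under TNF. Slc43a2 (LAT4), a uniporter of branched-chain amino acids, phenylalanine and methionine, read 8.80, 9.21 and 9.27 at 2 h, 9.44, 9.37 and 10.21 at 24 h and 8.75, 9.26 and 8.65 at 6 d under TNF, against 7.57, 7.65 and 7.80 in control. All 9 TNF arrays lay above all control arrays. Slc43a2 rose 2.67-fold after 2 h of TNF (1.42 ± 0.24, limma adjusted p 7.2e-04), 4-fold after 24 h (2.00 ± 0.24, adjusted p 9.4e-06) and 2.31-fold after 6 d (1.21 ± 0.24 [1.02], adjusted p 0.00258). A second probe set of Slc43a2 gave 1.66, 2.07 and 0.70. The Dex arrays of Slc43a2 read 7.43, 7.43 and 7.92 at 2 h, 7.61, 7.55 and 7.96 at 24 h and 7.24, 7.37 and 7.72 at 6 d and overlapped with control.

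Slc43a3, a purine nucleobase carrier in spite of its family, read 10.30, 10.22 and 10.32 at 2 h, 10.10, 9.88 and 10.39 at 24 h and 9.14, 6.43 and 8.96 at 6 d under TNF, against 8.59, 8.64 and 8.86 in control. The arrays of 2 h and 24 h of TNF lay above every control array by more than 1, and replicate 2 of 6 d was the lowest of all 21. The differences at 2 h and 24 h were 1.59 ± 0.44 and 1.43 ± 0.44, with limma adjusted p-values of 0.0528 and 0.0517. Without TNF 6 d replicate 2 the same differences had an SE of 0.13 and adjusted p-values of 1.1e-08 and 3.5e-08. Under Dex Slc43a3 read 8.81, 8.87 and 8.94 at 2 h, 8.73, 8.79 and 9.11 at 24 h and 8.63, 8.68 and 8.60 at 6 d, close to control.

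Slc43a1 (LAT3), another uniporter of branched-chain amino acids, read 7.87, 7.37 and 8.25 at 2 h, 8.74, 8.48 and 8.68 at 24 h and 8.75, 8.15 and 9.0 at 6 d under Dex, 7.60, 6.90 and 7.77 at 2 h, 8.75, 8.71 and 7.92 at 24 h and 8.57, 6.75 and 8.24 at 6 d under TNF and 8.18, 8.09 and 8.0 in control. Both agents had lower values at 2 h than at 24 h. No difference of Slc43a1 against control was called.

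Slc7a1 (CAT1), the cationic transporter that brings arginine and lysine into most cells, was called after 2 h of TNF. Its TNF arrays read 9.63, 9.95 and 9.28 at 2 h, 9.18, 9.06 and 9.70 at 24 h and 8.69, 9.29 and 8.62 at 6 d, against 8.93, 8.47 and 8.70 in control. The 3 arrays of 2 h lay above the control arrays. Slc7a1 rose by 0.93 ± 0.23 (limma adjusted p 0.026), a call that was lost without control replicate 2 or 3 or TNF 2 h replicate 1 or 2, with differences of 0.76 to 0.92, and a second probe set gave 0.93. At 24 h of TNF Slc7a1 was 0.61 ± 0.23 (adjusted p 0.125, or 0.018 without TNF 6 d replicate 2). Under Dex it read 9.10, 9.18 and 8.85 at 2 h, 9.12, 9.26 and 9.11 at 24 h and 9.07, 9.47 and 8.91 at 6 d, and it was not called. At each time of TNF and at 6 d of Dex, Slc7a1 was highest on the array with the largest 3' to 5' difference of its group. Those arrays were TNF 2 h replicate 2, TNF 24 h replicate 3, TNF 6 d replicate 2 and Dex 6 d replicate 2. The part of RNA quality in its change was not tested. Slc7a3, a related cationic transporter, and Slc7a4, a family member with no known transport, had means of 5.45 and 7.18 and were not called.

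Slc7a11 (xCT), the light chain that takes up cystine in exchange for glutamate for glutathione synthesis, lay near background. It read 5.61, 5.38 and 5.17 at 2 h, 5.13, 5.05 and 5.56 at 24 h and 4.83, 6.23 and 4.99 at 6 d under TNF, 5.07, 4.92 and 4.95 at 2 h, 4.88, 4.94 and 4.73 at 24 h and 4.81, 4.65 and 4.96 at 6 d under Dex and 4.90, 4.87 and 4.77 in control. It passed the rule on 4 arrays, all of them TNF arrays, and the 3 arrays of 2 h lay above control. The difference at 2 h was 0.54 ± 0.25 (limma adjusted p 0.438, or 0.00968 without TNF 6 d replicate 2). The control mean lay below the threshold, which leaves the size of this difference uncertain. Since Slc7a11 was kept only through TNF arrays, some difference there was built in.

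Promoter windows of 300 bases, from 250 before to 50 after a start site, come from RefSeq (GRCm38.p6) and matched 26 of the 39 members with 38 windows. No window was given for Slc7a5, Slc1a5, Slc43a3 or Slc36a2, among others, so these were not searched. The windows of Slc43a2, Slc7a1 and Slc7a11 are printed, 5′ to 3′ on the strand of the gene, because these genes had a window and higher values after 2 h of TNF. For Slc7a11, kept only through TNF arrays, some of that difference was built in. Capitals mark TGATGNAA, a core of the amino acid response element bound by ATF4 with CEBP proteins, in Slc7a11, and TGACNNNGC, a core of the antioxidant response element of NRF2, in Slc7a1, searched on both strands. The windows are chr11:75531444-75531743 (plus strand, the first of 2 for Slc43a2), chr5:148399855-148400154 (minus strand, the second of 2 for Slc7a1) and chr3:50443564-50443863 (minus strand, Slc7a11).
Slc43a2 promoter: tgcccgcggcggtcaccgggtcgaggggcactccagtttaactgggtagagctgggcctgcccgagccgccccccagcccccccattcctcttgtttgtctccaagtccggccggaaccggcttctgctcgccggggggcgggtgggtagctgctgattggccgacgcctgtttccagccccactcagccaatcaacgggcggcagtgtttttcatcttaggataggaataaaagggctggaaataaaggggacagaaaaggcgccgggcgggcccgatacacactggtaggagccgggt
Slc7a1 promoter: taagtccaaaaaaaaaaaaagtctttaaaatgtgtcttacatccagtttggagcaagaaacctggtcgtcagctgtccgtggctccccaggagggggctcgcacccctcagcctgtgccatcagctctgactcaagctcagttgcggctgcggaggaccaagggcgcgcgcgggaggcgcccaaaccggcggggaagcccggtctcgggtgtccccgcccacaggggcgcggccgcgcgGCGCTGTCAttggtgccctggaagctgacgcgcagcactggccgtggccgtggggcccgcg
Slc7a11 promoter: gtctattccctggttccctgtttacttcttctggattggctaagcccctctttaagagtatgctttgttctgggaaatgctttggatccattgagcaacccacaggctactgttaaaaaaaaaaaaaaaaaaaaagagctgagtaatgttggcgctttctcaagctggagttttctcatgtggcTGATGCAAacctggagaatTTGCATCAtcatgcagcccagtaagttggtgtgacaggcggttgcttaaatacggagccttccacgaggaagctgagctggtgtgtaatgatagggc
The Slc7a11 window holds the first core at -66 and, on the other strand, at -47 from the start site, and the Slc7a1 window holds the second core at -11. No match was found in either Slc43a2 window or in the Slc7a1 window not printed.

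Over the 26 members with a window, TGATGNAA was found in 5 of 38 windows (13.2%), of 4 genes (Slc1a4, Slc6a21, Slc7a11 and Slc7a7), and in 3.97% of all 32851 windows given. TGACNNNGC was found in 8 of 38 windows (21.1%), of 6 genes (Slc36a1, Slc38a2, Slc43a1, Slc6a9, Slc7a1 and Slc7a6), and in 12.4% of all windows. The kB site of NF-kB, in a consensus with an open centre, was found in 0 of the 38 windows and in 1.47% of all windows, and the full palindromic glucocorticoid response element in 0 of 38 and in 0.00913% of all. The 4 motifs do not overlap in the windows printed. Windows of the same gene can overlap, so a TGATGNAA site of Slc7a7 and the TGACNNNGC site of Slc7a6 were each counted in more than 1 window. The median GC content was 59.7% in member windows and 52.7% in all windows, and the difference in shares was not tested. A match describes letters and shows no binding.

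The plot of members with changes under TNF shows Slc43a2, Slc43a3, Slc7a1 and Slc7a11, with Slc38a6 and Slc38a7.

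**Figure D4:**
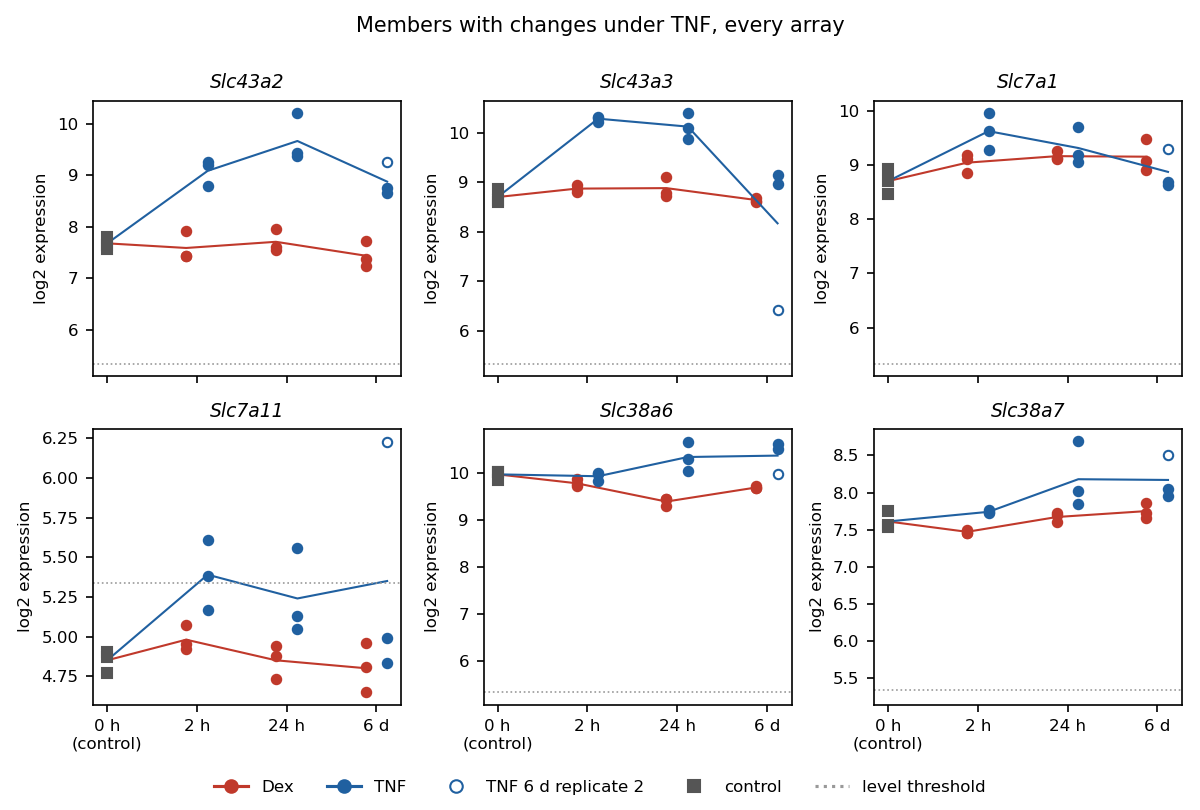
Log2 expression (y axis, a range of its own in each panel) on every array by time of treatment (x axis), with Dex in red, TNF in blue, control squares at 0 h and lines through group means. The open circle is TNF 6 d replicate 2 and the dotted line the level threshold of 5.34. Slc43a2 and Slc43a3 are higher at 2 h and 24 h of TNF, and Slc7a11 lies around the threshold.

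Among the Slc38 carriers, Slc38a2 (SNAT2), the system A transporter of alanine and glutamine that cells induce when amino acids run short, was highest at 2 h of Dex. It read 11.88, 11.83 and 11.80 at 2 h, 11.60, 11.63 and 11.65 at 24 h and 11.38, 11.47 and 11.28 at 6 d under Dex, against 11.19, 11.03 and 11.23 in control, and 11.22, 11.64 and 11.20 at 2 h, 11.30, 11.23 and 11.69 at 24 h and 11.20, 10.30 and 11.42 at 6 d under TNF. The Dex arrays of 2 h and 24 h all lay above control. The difference was 0.69 ± 0.22 at 2 h and 0.48 ± 0.22 at 24 h, neither called with all arrays (limma adjusted p 0.148 and 0.391) and both called without TNF 6 d replicate 2 (6.2e-04 and 0.0109). A second probe set of Slc38a2 gave 1.15 and 0.40. Another, above the threshold on 16 arrays, gave 0.30 and -0.19, in the other direction at 24 h.

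Slc38a7 (SNAT7), which exports glutamine from lysosomes, read 7.76, 7.72 and 7.74 at 2 h, 8.02, 7.84 and 8.69 at 24 h and 8.05, 8.51 and 7.96 at 6 d under TNF, against 7.53, 7.56 and 7.75 in control, and 7.46, 7.46 and 7.50 at 2 h, 7.70, 7.60 and 7.72 at 24 h and 7.66, 7.86 and 7.72 at 6 d under Dex. All TNF arrays of 24 h and 6 d lay above control, with TNF 24 h replicate 3 and TNF 6 d replicate 2 highest. Slc38a7 rose by 0.56 ± 0.18 at 6 d of TNF (limma adjusted p 0.0478), but without TNF 6 d replicate 2 the difference was 0.40 ± 0.17 (adjusted p 0.108), and the call was also lost without any 1 control array (0.52 to 0.63). At 24 h it was 0.57 ± 0.18 (adjusted p 0.0665, or 0.00782 without that array).

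Slc38a6, a poorly characterised family member, moved in opposite directions under the 2 agents in the comparisons made without TNF 6 d replicate 2. It read 9.88, 9.77 and 9.73 at 2 h, 9.45, 9.45 and 9.31 at 24 h and 9.69, 9.68 and 9.73 at 6 d under Dex, 9.99, 10.01 and 9.83 at 2 h, 10.30, 10.06 and 10.68 at 24 h and 10.52, 9.98 and 10.63 at 6 d under TNF and 10.04, 10.04 and 9.87 in control. The 24 h Dex arrays lay below control and the 24 h TNF arrays above it. Without that array it fell by 0.58 on the log2 scale at 24 h of Dex (limma adjusted p 0.00219) and rose by 0.36 ± 0.12 at 24 h of TNF (adjusted p 0.0338), while with all arrays neither was called (0.0872 and 0.291).

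Slc38a4 (SNAT4), another system A carrier, lay near the threshold, at 5.33, 5.19 and 5.42 at 2 h, 5.09, 4.92 and 5.32 at 24 h and 5.99, 7.05 and 5.49 at 6 d under Dex, 4.84, 5.77 and 4.60 at 2 h, 5.89, 5.56 and 5.27 at 24 h and 6.83, 5.38 and 6.63 at 6 d under TNF and 5.04, 5.27 and 5.73 in control. Its values spread widely at 6 d of both agents, and at 6 d of TNF it was 0.93 ± 0.38 with all arrays and 1.38 ± 0.34 without replicate 2 (limma adjusted p 0.0984 and 0.00642). Slc38a1 (SNAT1), of the same system, read 5.94, 5.64 and 5.64 at 2 h, 5.81, 5.88 and 5.89 at 24 h and 5.77, 5.79 and 5.84 at 6 d under Dex, 6.12, 5.98 and 6.10 at 2 h, 5.88, 5.85 and 5.88 at 24 h and 5.82, 7.08 and 5.88 at 6 d under TNF and 5.88, 5.81 and 5.72 in control. Slc38a3 (SNAT3), the system N glutamine carrier, read 6.09, 6.25 and 6.08 at 2 h, 6.27, 6.32 and 6.12 at 24 h and 6.29, 6.02 and 6.17 at 6 d under Dex, 6.29, 6.17 and 5.93 at 2 h, 6.02, 6.03 and 6.16 at 24 h and 6.10, 5.66 and 6.17 at 6 d under TNF and 6.47, 6.33 and 6.17 in control. Neither was called. Slc38a9, the lysosomal arginine sensor of mTORC1, read 6.72, 6.88 and 6.80 at 2 h, 7.02, 7.0 and 7.23 at 24 h and 7.0, 7.25 and 6.94 at 6 d under Dex, 6.78, 6.99 and 6.33 at 2 h, 6.71, 6.83 and 6.84 at 24 h and 6.64, 7.52 and 6.75 at 6 d under TNF and 7.15, 7.07 and 6.98 in control and was not called, nor was the poorly known Slc38a10, at 10.61 to 11.39.

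None of the 8 Slc6 members was called against control with all arrays. Slc6a6 (TauT), the taurine transporter, read 12.26, 12.13 and 12.37 at 2 h, 11.75, 11.62 and 11.78 at 24 h and 12.13, 12.10 and 11.92 at 6 d under Dex, 12.43, 12.63 and 12.46 at 2 h, 12.28, 12.13 and 12.52 at 24 h and 12.74, 11.53 and 12.72 at 6 d under TNF and 12.47, 12.45 and 12.37 in control. The Dex arrays of 24 h and 6 d lay below every control array, and those of 24 h were the lowest. The differences at 24 h and 6 d of Dex were -0.71 ± 0.22 and -0.38 ± 0.22 (limma adjusted p 0.0977 and 0.437), and without TNF 6 d replicate 2 both were called (2.2e-05 and 0.00586). A second probe set of Slc6a6 gave -0.85 and -0.28, and the 2 dimmer ones gave -0.13 and -0.07, and -0.04 and -0.11.

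Slc6a8, the creatine transporter, read 8.94, 9.10 and 9.21 at 2 h, 9.23, 9.21 and 9.32 at 24 h and 8.87, 9.11 and 9.13 at 6 d under Dex, 8.75, 8.83 and 8.85 at 2 h, 8.72, 8.67 and 9.81 at 24 h and 9.38, 9.13 and 9.82 at 6 d under TNF and 8.92, 8.95 and 9.16 in control. Slc6a9 (GlyT1), a glycine transporter, read 7.22, 7.51 and 7.22 at 2 h, 7.35, 7.34 and 7.50 at 24 h and 7.59, 7.83 and 7.48 at 6 d under Dex, 7.38, 7.38 and 7.32 at 2 h, 7.28, 7.37 and 7.53 at 24 h and 7.20, 6.61 and 7.29 at 6 d under TNF and 7.59, 7.26 and 7.35 in control. Both stayed within about 1 of the control mean on every array. Slc6a2 and Slc6a4 (noradrenaline and serotonin), Slc6a7 (proline), Slc6a17 (a vesicular carrier of neutral amino acids) and Slc6a21 (an orphan) had means of 5.99, 5.41, 6.14, 6.98 and 5.20.

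Of the 63 genes of the rule, 24 were dim. They include the heavy chain Slc3a1 (array values 4.14 to 5.82), the cationic transporter Slc7a2 (3.68 to 4.21), the light chains Slc7a8 (3.2 to 3.93) and Slc7a10 (4.92 to 5.41) and the GABA and taurine carrier Slc6a13 (3.75 to 4.35). Just inside the rule lay Slc7a13, Slc7a11 and Slc6a21, above the threshold on 3, 4 and 4 arrays. Just outside lay 7 genes with 1 array above it (Slc1a6, Slc3a1, Slc6a16, Slc6a19, Slc6a5, Slc7a10 and Slc7a15), and for 5 of these that array was TNF 6 d replicate 2.

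The agents were then set against each other at each time, as Dex minus TNF. At 2 h 1 member was called, lower under Dex, beside 5.97% of all genes (2.36% higher and 3.61% lower), and 7 without TNF 6 d replicate 2 (2 higher and 5 lower, beside 14.8%). At 24 h 4 were called, 2 in each direction, beside 13.5% of all genes (5.89% higher and 7.56% lower), and 10 without that array (4 higher and 6 lower, beside 33%). At 6 d 7 were called, 5 higher and 2 lower, beside 23.7% of all genes (15.9% higher and 7.81% lower), and 11 without that array (5 higher and 6 lower, beside 30.1%). These shares also lie near or below those of all genes. Slc7a11, kept only through TNF arrays, is among the members called at 2 h and 24 h without that array.

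Slc43a2 was lower under Dex than under TNF at all 3 times, with differences of -1.5, -1.96 and -1.44 [-1.25] (SE 0.24, limma adjusted p 2.6e-04, 7.9e-06 and 2.8e-04), with no overlap between the arrays of the 2 agents. Slc7a5 was higher under Dex by 1.03 ± 0.23 at 24 h and 2.71 ± 0.23 [2.42] at 6 d (adjusted p 0.00374 and 1.2e-07). Slc1a5 was higher by 1.51 ± 0.29 and 2.55 ± 0.29 [2.06] (adjusted p 0.00111 and 4.7e-06). For both genes the arrays of the agents did not overlap at these times.

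Slc38a6 was lower under Dex, with differences of -0.94 ± 0.18 at 24 h (limma adjusted p 1.0e-03) and -0.67 ± 0.18 [-0.87] at 6 d (adjusted p 0.0114). A further 3 members were called at 6 d, and each difference was smaller without TNF 6 d replicate 2. Slc3a2 was higher under Dex by 1.40 ± 0.41 [0.59], Slc6a9 by 0.60 ± 0.17 [0.39] and Slc1a1 by 0.45 ± 0.15 [0.28], with adjusted p-values of 0.0211, 0.0166 and 0.0332. Without that array the limma adjusted p of Slc1a1 was 0.128, while Slc3a2 and Slc6a9 were still called. Leaving out a Dex 6 d array ended calls as well. That of Slc3a2 was lost without replicate 1 or 3 (1.31 and 1.40) and that of Slc6a9 without replicate 2 (0.50). That of Slc1a1 was lost without replicate 2 or 3 (0.40 and 0.45). Called in the fit without TNF 6 d replicate 2 but not with it were Slc43a3 at all 3 times (-1.41, -1.25 and -0.41), Slc6a6 at 24 h and 6 d (-0.59 and -0.68) and Slc1a3 at 24 h and 6 d (0.62 and 1.02), among others. In the plot of Dex minus TNF the 7 members called with all arrays stand on either side of 0.

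**Figure D5:**
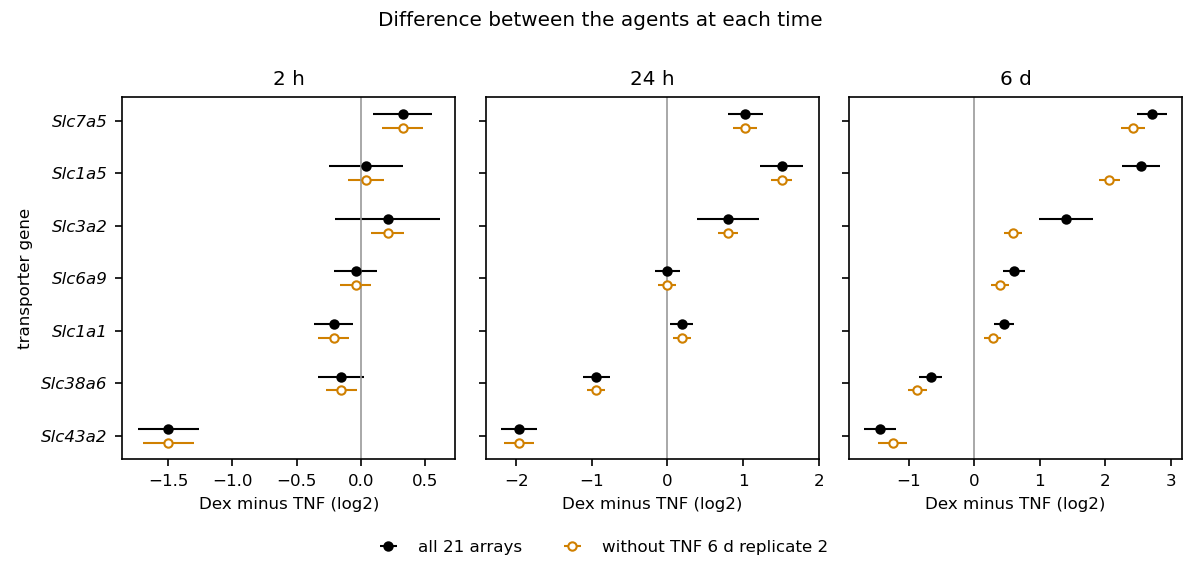
Dex minus TNF on the log2 scale (x axis) at 2 h, 24 h and 6 d for the 7 members called with all arrays at any of these times (rows, ordered by the 6 d difference), with bars of 1 SE. Black points are from all 21 arrays and open points from the fit without TNF 6 d replicate 2. Slc43a2 and Slc38a6 lie on the side of TNF and Slc7a5 and Slc1a5 on the side of Dex.

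Neighbouring times were compared within each agent. From 2 h to 24 h of Dex, Slc7a5 and Slc1a5 were the 2 members called, both higher at 24 h, beside 3.62% of all genes (1.57% higher and 2.05% lower), and 7 members were called without TNF 6 d replicate 2 (4 higher and 3 lower, beside 13.5%). Between 24 h and 6 d of Dex 0 were called by limma, beside 0.683% of all genes (0.247% higher and 0.436% lower), and without that array 2 (Slc1a3 and Slc7a5, higher at 6 d, beside 4.5%). Under TNF 0 members were called at 24 h against 2 h, beside 5.69% of all genes (3% higher and 2.69% lower), and 7 without that array (6 higher and 1 lower, beside 22.1%). At 6 d against 24 h of TNF 3 were called, all lower, beside 5.99% of all genes (1.21% higher and 4.78% lower), and 6 without that array (2 higher and 4 lower, beside 9.2%). Those 3 were Slc43a3 (-1.95 ± 0.44 [-1.08]), Slc1a5 (-1.06 ± 0.29 [-0.56], with 0.08 from its second probe set) and Slc7a5 (-1.0 ± 0.23 [-0.71]).

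Other genes that handle amino acids were read from 6 lists, whose counts against control stand beside these shares of all genes. With all arrays 1.66%, 2.06% and 3.22% of all genes rose and 0.814%, 2.11% and 5.08% fell at the 3 times of Dex. Under TNF 2.95%, 5.41% and 4.52% rose and 0.872%, 3.27% and 10.7% fell. Without TNF 6 d replicate 2 the shares were 4.29%, 6.39% and 10.4% higher and 2.83%, 6.79% and 13.5% lower under Dex. Under TNF they were 6.59%, 13.2% and 10.5% higher and 4.08%, 12.4% and 9.93% lower. With lists of 11 to 31 genes, most counts below amount to a few genes.

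Of 15 tested carriers outside the 7 families, 0, 0 and 2 rose and 0 fell at the 3 times of Dex by limma, and 1, 2 and 2 rose and 0, 2 and 3 fell at the 3 times of TNF. Leaving out TNF 6 d replicate 2 gave 0, 3 and 3 higher and 2, 1 and 2 lower under Dex. Under TNF it gave 1, 3 and 3 higher and 1, 3 and 3 lower. Slc15a3, a lysosomal carrier of histidine and small peptides, read 5.29, 5.29 and 4.99 at 2 h, 9.44, 9.11 and 10.19 at 24 h and 7.76, 6.36 and 7.46 at 6 d under TNF, against 3.97, 4.19 and 3.84 in control and 3.73 to 4.39 over all Dex arrays. It rose by 1.19 ± 0.29, 5.58 ± 0.29 and 3.19 ± 0.29 [3.61] (limma adjusted p 0.0249, 2.8e-10 and 1.5e-06). Slc15a3 passed the level threshold only on TNF arrays of 24 h and 6 d. Since it was kept only through those arrays, some difference there was built in, and it is among the carriers counted as higher under TNF. The control mean was below the threshold, and at 2 h both means were below it, which leaves the size of these differences uncertain. The 24 h arrays lay over 4 above every control array. Sfxn1, the mitochondrial serine carrier, rose by 0.54 ± 0.13 at 6 d of Dex and fell by 0.80 ± 0.13 at 24 h of TNF (adjusted p 0.00946 and 2.4e-04).

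The amino acid stress response list (ATF4 and partners) had 27 tested genes, of which 3, 4 and 5 rose and 1, 0 and 0 fell at the 3 times of Dex, with medians of -0.05, 0.17 and -0.04. The fit without TNF 6 d replicate 2 gave 5, 9 and 9 higher and 1, 1 and 5 lower. Mthfd2, a mitochondrial folate enzyme, read 11.64, 11.72 and 11.59 at 2 h, 12.55, 12.42 and 12.54 at 24 h and 12.24, 11.86 and 12.61 at 6 d under Dex, 10.29, 10.09 and 9.77 at 2 h, 9.51, 9.73 and 8.75 at 24 h and 9.26, 8.43 and 9.25 at 6 d under TNF and 9.82, 9.59 and 9.57 in control. All Dex arrays lay above all control arrays. Mthfd2 rose by 1.99 ± 0.26, 2.84 ± 0.26 and 2.57 ± 0.26 (limma adjusted p 7.2e-05, 8.3e-07 and 1.8e-06), and Gpt2, the mitochondrial alanine transaminase, by 0.95 ± 0.18, 2.08 ± 0.18 and 1.88 ± 0.18 (adjusted p 0.0033, 3.3e-07 and 7.2e-07). Ddit3, which encodes the stress factor CHOP, was the gene of this list that fell at 2 h of Dex (-0.86 ± 0.21, adjusted p 0.0348).

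Under TNF 2, 3 and 0 genes of that list rose and 1, 2 and 6 fell, with medians of 0.01, -0.01 and -0.40, against -0.05, -0.03 and -0.23 over all genes. In the fit without TNF 6 d replicate 2 the counts were 4, 4 and 0 higher and 2, 4 and 6 lower, and the median at 6 d was -0.15, against -0.05 over all genes. Those lower at 6 d include Ddit4, an inhibitor of mTORC1, at -2.85 ± 0.43 [-2.06], Psat1, a serine synthesis enzyme, at -1.56 ± 0.35 [-0.95], and Trib3, a pseudokinase induced by ATF4, at -1.53 ± 0.35 [-1.02]. Of 18 tested aminoacyl-tRNA synthetases, 1 (Mars1) was called against control with all arrays, at 6 d of Dex (0.57 ± 0.16, limma adjusted p 0.0281). With TNF 6 d replicate 2 left out, 1 and 4 synthetases were higher at 24 h and 6 d of Dex and 2 at 24 h of TNF.

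Of 19 tested enzymes that act on transported amino acids, 1, 1 and 4 rose and 0, 1 and 2 fell at the 3 times of Dex, and 0 rose and 0, 3 and 8 fell at the 3 times of TNF. With TNF 6 d replicate 2 left out the counts were 1, 5 and 4 higher and 0, 1 and 4 lower under Dex. Under TNF they were 0 higher and 0, 6 and 8 lower. Glul, which makes glutamine from glutamate, read 12.88, 12.99 and 12.78 at 2 h, 13.41, 13.51 and 13.47 at 24 h and 13.72, 13.80 and 13.45 at 6 d under Dex, against 11.67, 11.70 and 11.88 in control. It rose by 1.13 ± 0.12, 1.71 ± 0.12 and 1.91 ± 0.12 (limma adjusted p 7.9e-06, 3.6e-08 and 4.9e-09), so the glutamine exchanger Slc1a5 and the glutamine-making enzyme were both higher at 24 h and 6 d. Cdo1, which breaks down cysteine on the way to taurine, rose by 1.63 ± 0.49 at 6 d of Dex (adjusted p 0.0465). Nos3, which makes nitric oxide from arginine, fell by 2.23 ± 0.32 at 6 d of Dex and by 1.84 ± 0.32 at 6 d of TNF [-1.25] (adjusted p 1.2e-04 and 0.00105).

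The list of amino acid sensing by mTORC1 had 31 tested genes, of which 1, 0 and 0 rose and 0, 2 and 2 fell at the 3 times of Dex, and 0 rose and 1, 1 and 4 fell at the 3 times of TNF. Leaving out TNF 6 d replicate 2 gave 1, 0 and 0 higher and 0, 2 and 5 lower under Dex. Under TNF it gave 0, 2 and 1 higher and 3, 6 and 3 lower. Sesn1, a sestrin that restrains mTORC1, rose by 0.88 ± 0.21 at 2 h of Dex and fell by 0.96 ± 0.21 at 2 h of TNF (limma adjusted p 0.0236 and 0.00784). Eif4ebp1, a translation repressor that mTORC1 phosphorylates, was lower at 24 h and 6 d of Dex (-0.55 ± 0.12 and -0.50 ± 0.12) and of TNF (-0.64 ± 0.12 and -0.55 ± 0.12 [-0.69]). Of 11 tested NRF2 target genes, 0, 1 and 1 rose at the 3 times of Dex and 0, 1 and 2 fell at the 3 times of TNF, with 0 lower under Dex and 0 higher under TNF. The counts without TNF 6 d replicate 2 were 0, 2 and 2 higher and 0, 0 and 1 lower under Dex. Under TNF they were 1, 2 and 1 higher and 1, 2 and 1 lower.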

How the data were processed

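RNA of 3T3-L1 adipocytes was measured on 21 Affymetrix arrays as biotinylated cRNA. Per the submitters' processing notes, the authors summarised the arrays by RMA, with no version given, and the deposited table was taken as log2 expression, from values of 2.70 to 15.06, and used unchanged. The array software is not given in the sources used here. Of 45101 probe sets, 34958 list 1 symbol, 932 several and 9211 none, and the symbols of 34754 were updated through the Entrez identifier. Each gene took its 1-symbol probe set with the highest mean, and 12156 of 18194 genes, those above 5.34 on 3 or more arrays, were tested. For 25 of the 39 members several probe sets exist.

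A mean per group was fitted with limma 3.58.1 in R 4.3.3 to all 21 arrays (14 residual and 3.96 prior degrees of freedom, empirical Bayes with a trend), giving two-sided p-values adjusted over the genes tested in each of 13 comparisons. An exact permutation of 3 arrays against 3 cannot go below 0.1. Arrays have no read depth, and their number limits the precision. Samples were grouped by the labelled agent and time. Alternatives were median centring, array weights, a replicate block, a fit of only the 2 groups, averaging the probe sets of a gene, no filter on level or a higher one (6.10, the 60th percentile) and leaving out arrays, with TNF 6 d replicate 2 left out of every comparison. Same-number arrays deviated together (all correlations over 0.1) only at 24 h, for Dex and control (0.233 to 0.447) and for Dex and TNF (0.207 to 0.270). No pair of arrays was a duplicate (highest correlation 0.9983). The calling was tried on simulated data with normal noise of the same spread on every array for a gene. Those data held no outlying array, so they do not show how calling behaves with TNF 6 d replicate 2.

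The members, gene lists and settings were chosen with earlier results of these data known. Named with values on every array were the members called against control and a set list of well-known transporters, and called genes with the largest changes from each pathway list. Probe sets of several genes or none were not used.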

Additional observations from a re-analysis of the deposited data

Results flagged for a closer look

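The change against control differed between times of the same agent for 3 members, by limma's test of the difference over all genes tested. All times share the control labelled 0 h, so it cancels, and length of treatment cannot be told apart from time in culture. For Slc7a5 the change at 24 h of Dex exceeded that at 2 h by 1.46 ± 0.23 (adjusted p 6.3e-04), and for Slc1a5 by 1.5 ± 0.29 (adjusted p 0.00449). A second probe set of Slc1a5 gave 1.01. Under TNF the change at 6 d differed from that at 24 h by -1.0 ± 0.23 for Slc7a5 (adjusted p 0.0138), -1.06 ± 0.29 for Slc1a5 (adjusted p 0.0373) and -1.95 ± 0.44 for Slc43a3 (adjusted p 0.0127). Without TNF 6 d replicate 2 these last 3 were -0.71, -0.56 and -1.08, with adjusted p-values of 0.0175, 0.0314 and 3.3e-05. Leaving out TNF 24 h replicate 3 gave -0.76 for Slc7a5 (adjusted p 0.0805), -1.11 for Slc1a5 (adjusted p 0.0847) and -1.82 for Slc43a3 (adjusted p 0.0622). For Slc1a5 the call was lost in 6 of 13 settings, among them without TNF 24 h replicate 1 (-1.05, adjusted p 0.0954) or 2 (-1.01, adjusted p 0.1) and with the mean of all probe sets (-0.49, adjusted p 0.0663), and its second probe set gave 0.08.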

How the results depend on the processing

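Of 32 member calls over 13 comparisons, 16 were kept in every alternative that could be fitted, among them each call of Slc7a5 and Slc1a5 under Dex against control and of Slc43a2 at 2 h and 24 h of TNF, and 16 were lost in at least 1. Comparisons are listed as Dex 2 h, 24 h and 6 d and TNF 2 h, 24 h and 6 d against control, Dex against TNF at 2 h, 24 h and 6 d, then Dex 24 h against 2 h, Dex 6 d against 24 h, TNF 24 h against 2 h and TNF 6 d against 24 h. With array weights, whose fit stopped before its convergence tolerance, members called numbered 7, 12, 16, 16, 23 and 18, then 14, 22 and 19, then 12, 13, 19 and 13. Leaving out 1 array at a time gave 0 to 3, 2 to 8, 4 to 7, 1 to 4, 1 to 8 and 2 to 13, then 1 to 7, 4 to 10 and 5 to 14, then 2 to 7, 0 to 2, 0 to 7 and 1 to 10. With only the 2 groups fitted, counts moved to 3, 10 and 7 for Dex, 4 and 0 at 2 h and 6 d of TNF, 4, 8 and 1 for Dex against TNF, and 10, 2, 2 and 0 between times. The mean of all probe sets gave 1 and 5 at 2 h and 24 h of Dex, 5 at 24 h of TNF, 2 for Dex against TNF at 2 h, 5 for Dex 24 h against 2 h and 1 for TNF 24 h against 2 h. No filter and median centring each gave 2 at 6 d of TNF. The replicate block gave 4 at 24 h of TNF, 1 for TNF 24 h against 2 h and 5 for TNF 6 d against 24 h, moved no other count by over 1.5 times, and ended the call of Slc38a7 at 6 d of TNF (adjusted p 0.054). For Dex against TNF at 6 d, 3 uncalled members turned sign: Slc36a1 (0.04 with all arrays), Slc36a4 (0.24) and Slc43a3 (0.46) gave -0.39, -0.77 and -0.39 with array weights and -0.39, -0.58 and -0.41 without TNF 6 d replicate 2, and leaving out 1 array at a time gave -0.39 to 0.28, -0.58 to 0.65 and -0.41 to 0.94. The cause of these shifts was not tested, beyond the smaller spread and the fewer arrays that the settings themselves bring. Precision is limited by 3 arrays a group, by TNF 6 d replicate 2 and, for Slc7a11, Slc38a4 and other dim genes, by signal near background.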
